A study of Mus musculus with 36 samples.

Results

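The genes described here encode the subunits of the proteasome together with its activators, its inhibitor and its assembly chaperones. They were taken by symbol, as every gene whose name begins with Psm, a letter from a to g and a digit, and 49 of the 21761 genes listed met that rule. Of these, 47 had enough reads to be tested. Psma8, the testis form of an alpha subunit, had 81 reads over the 36 libraries, and Psmb11, the thymus form of a catalytic subunit, had 23, and neither was tested. The 47 comprised 5 interferon-induced genes (Psmb8, Psmb9, Psmb10, Psme1 and Psme2), 41 other subunits, regulators and chaperones, called constitutive below, and Psmc3ip, which met the rule by name only: its product is named for binding an ATPase subunit, works in meiotic recombination and is not a proteasome subunit.

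The cells were mouse motor neurons made from embryonic stem cells of the transgenic Hlxb9-GFP1Tmj line, in which the HB9 promoter drives eGFP, or eGFP with CD2, so the reporter follows the same promoter that defines a motor neuron. They were sorted with magnetic beads on CD2 and then kept in medium conditioned by astrocytes from the spinal cords or cortices of newborn pups. The astrocyte donors were non-transgenic (NTg), or carried a transgene overexpressing G93A mutant SOD1 (mSOD1) or wtSOD1, and only the medium, not the neurons, differed in SOD1 genotype. All media also received glucose, penicillin/streptomycin, GDNF, BDNF and CNTF, and residual microglia had been shaken off the astrocyte layers. RNA was taken after 1 or 3 days, which gave 6 groups of 6 libraries, each library of a group carrying an experiment number from 1 to 6.

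The proteasome is the protease that degrades ubiquitin-tagged proteins. Alpha subunits form the outer rings of its barrel and beta subunits the inner rings, where Psmb5, Psmb6 and Psmb7 carry the cutting sites, while a cap of ATPases and receptors unfolds the substrate and feeds it in. Under interferon, Psmb8 takes the place of Psmb5, Psmb9 that of Psmb6 and Psmb10 that of Psmb7, which gives the immunoproteasome, known for making peptides for MHC class I, and Psme1 and Psme2 form the PA28 ring that opens the barrel without ubiquitin. Neurons are known to hold mainly the constitutive form, and glia and blood-derived cells more of the induced one.

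Upstream sequence is shown for the genes on which the day comparison turned, the catalytic pairs of Psmb8 with Psmb5 and of Psmb9 with Psmb6. Each is the stretch before the RefSeq start of transcription on build GRCm38.p6, written 5′ to 3′ on the gene's own strand and ending at the last base before the start. Capitals mark a match to 1 of 4 short motifs, and a stretch all in lower case held none. Psmb8 lies on the plus strand at chr17:34197945-34198194, Psmb5 on the minus strand at chr14:54617996-54618245 and Psmb6 on the plus strand at chr11:70525107-70525356. Psmb9 lies on the minus strand and Tap1, which encodes part of the peptide pump that supplies MHC class I, starts on the other strand 225 bases away, so the whole stretch between both starts is given, from chr17:34187331-34187555.
Psmb8: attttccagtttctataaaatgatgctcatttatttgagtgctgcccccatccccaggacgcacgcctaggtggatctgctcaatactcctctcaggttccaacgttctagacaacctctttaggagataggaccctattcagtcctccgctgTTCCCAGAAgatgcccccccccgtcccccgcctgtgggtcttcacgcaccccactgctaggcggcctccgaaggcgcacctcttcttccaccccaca
Psmb9 to Tap1: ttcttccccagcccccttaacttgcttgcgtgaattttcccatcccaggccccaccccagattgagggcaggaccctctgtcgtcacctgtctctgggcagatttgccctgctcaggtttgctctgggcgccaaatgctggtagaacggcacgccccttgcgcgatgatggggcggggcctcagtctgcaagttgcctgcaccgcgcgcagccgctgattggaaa
Psmb5: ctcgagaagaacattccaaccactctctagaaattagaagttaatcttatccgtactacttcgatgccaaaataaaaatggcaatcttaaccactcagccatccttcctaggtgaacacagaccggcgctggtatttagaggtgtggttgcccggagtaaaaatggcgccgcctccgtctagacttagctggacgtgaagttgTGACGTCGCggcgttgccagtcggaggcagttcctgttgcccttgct
Psmb6: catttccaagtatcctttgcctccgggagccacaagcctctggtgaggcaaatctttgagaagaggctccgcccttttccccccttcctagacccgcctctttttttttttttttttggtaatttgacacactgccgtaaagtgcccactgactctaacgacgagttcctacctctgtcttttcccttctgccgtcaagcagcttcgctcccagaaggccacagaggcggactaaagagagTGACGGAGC

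The motifs were searched on both strands in the 250 bases before each start, in the 41 of the 49 genes with an entry and in all 27025 genes of the table. The interferon element, TTTC followed by 2 free bases and TTTC, was in none of the 5 interferon-induced genes, in 3 of the other 36 and in 3.46% of all genes. The interferon-gamma element TTCNNNGAA was in 1 of the 5, in 1 of the other 36 and in 8.13% of all genes, and the match in Psmb8, TTCCCAGAA, spanned bases 97 to 89 before the start. The NF-kB element, GGG followed by 3 free bases and TTCC, was in none of the 5, in 3 of the 36 and in 5.31% of all genes. The antioxidant element TGACNNNGC, which is read by the transcription factors that raise proteasome genes under stress, was in none of the 5, in 5 of the 36 and in 11.5% of all genes. Psmb5 held TGACGTCGC at bases 47 to 39 and Psmb6 held TGACGGAGC at bases 9 to 1. No match in these genes overlapped a match to another motif, and a match describes letters only. In the GENCODE annotation Psmb8, Psmb9 and Psme1 begin upstream of the whole stretch searched. Starts outside RefSeq were not searched, so a missing match holds for these windows only.

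Library totals ran from 4.39 to 88.9 M reads with a median of 13.3 M (M, 1000000 reads), and from 16465 to 18506 genes had a read. Motor neuron markers were present in every library, with a summed level of 7 genes (Mnx1, Isl1, Isl2, Chat, Slc18a3, Slc5a7 and Prph) whose group medians were 1548 to 1590 CPM (reads of a gene per 1000000 reads of the library total after TMM scaling) on day 1 and 770 to 978 CPM on day 3. Astrocyte markers, 7 genes, had group medians of 173 to 179 CPM on day 1 and 411 to 454 CPM on day 3, and mesenchyme markers, 6 genes, 72.3 to 78.7 CPM and 171 to 242 CPM. The sum of 10 microglia and leukocyte markers had medians of 4.94 to 5.88 CPM, and the NTg day 1 library of experiment 6 stood apart at 57.3 CPM. In that library C1qa was at 6.60 CPM and at 0 in the other 35, and Ptprc was at 8.01 CPM against at most 0.581 CPM elsewhere. It was also the shallowest library, and the wtSOD1 day 1 library of experiment 4 was the deepest, so some results that rest on either are given without them too.

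Levels set the scale of what follows, and between genes they are given per kilobase of the gene's principal transcript. In NTg medium on day 1, Psmb9 had 0.369 ± 0.172 CPM per kilobase and Psmb8 0.763 ± 0.486 (SD, n = 6). Psme2 followed at 4.74 ± 1.24, Psmb10 at 8.91 ± 1.27 and Psme1 at 33.6 CPM per kilobase. The constitutive catalytic genes were higher, Psmb5 at 57.9, Psmb7 at 120 and Psmb6 at 148 CPM per kilobase, and 4 of the 5 induced genes were below each of the 41 constitutive genes tested. The spreads of Psmb9 and Psmb8 touched each other, whereas among the 5 Psme2, Psmb10 and Psme1 were each apart from the next by more than their SDs. The 5 induced genes together made up 55.3 ± 5.17 CPM against 4376 ± 92.1 CPM for the 41 constitutive genes (SD, n = 6, NTg day 1).

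**Figure D1:**
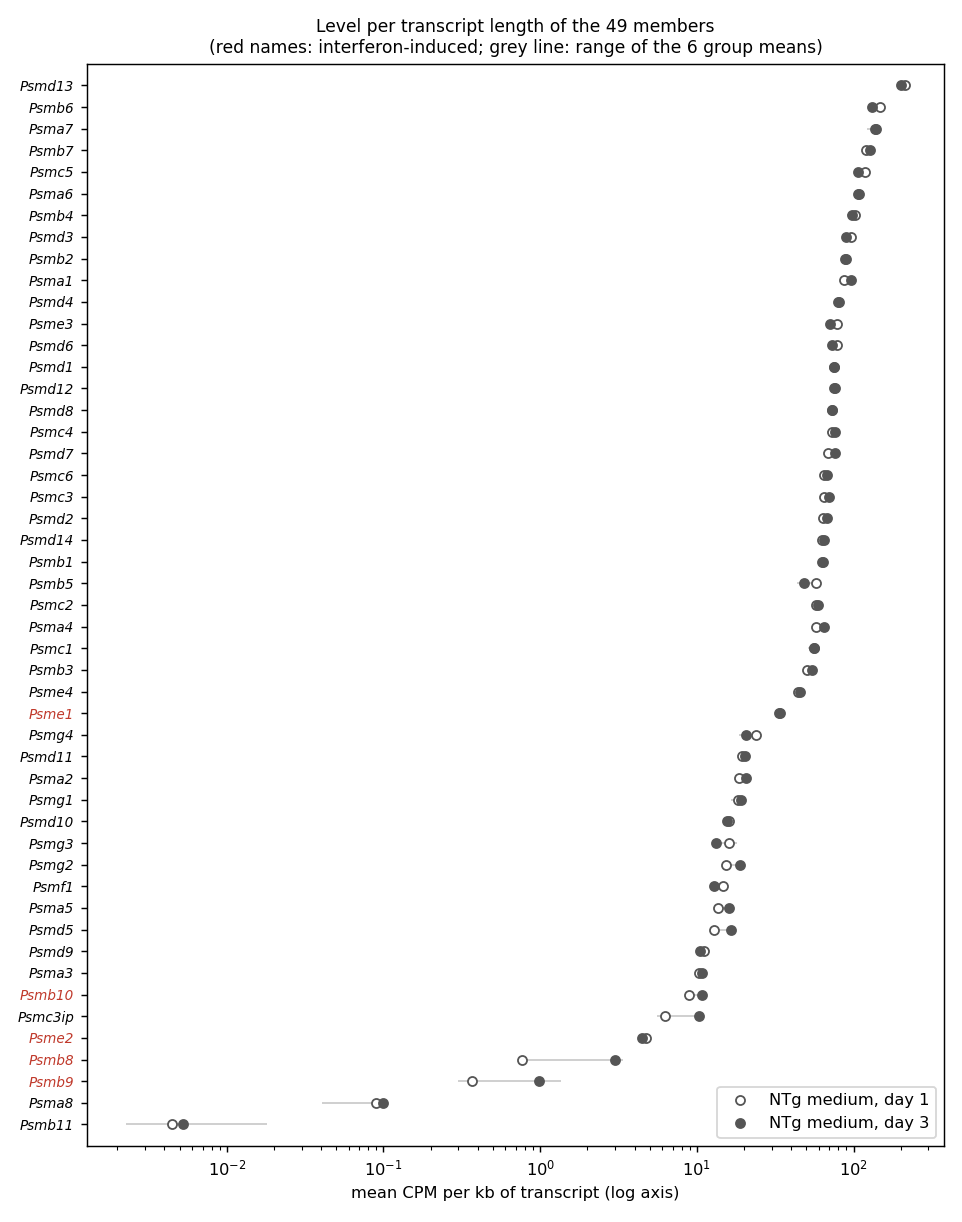
Mean level of each of the 49 genes in CPM per kilobase of transcript (log axis), with open circles for NTg medium on day 1, filled circles for NTg medium on day 3 and a grey line for the range of the 6 group means. Psmb9 and Psmb8 lie lowest among the tested genes, from 0.369 and 0.763 on day 1 to 0.979 and 3.00 on day 3.

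The clearest movement in the family was with time in culture. Psmb8, the induced counterpart of Psmb5, was between 0.739 and 2.83 CPM on day 1 in NTg medium (median 0.977) and between 3.60 and 5.99 CPM on day 3 (median 4.98). In mSOD1 medium it was between 0.949 and 2.39 CPM on day 1 (median 1.81) and between 4.39 and 6.98 CPM on day 3 (median 5.36). In wtSOD1 medium it was between 0.629 and 1.67 CPM on day 1 (median 1.10) and between 3.38 and 6.31 CPM on day 3 (median 5.36). Every day 3 library was above every day 1 library of the same medium, and day 3 was higher in 6 of 6 same-numbered pairs in each. Days without overlap, in either direction, were common, at 38.4%, 32% and 38.3% of all genes in NTg, mSOD1 and wtSOD1 medium. On the log2 scale Psmb8 rose by 2.21 ± 0.23 in NTg medium (SE, edgeR quasi-likelihood test, adjusted p = 1.07e-10), by 1.68 ± 0.21 in mSOD1 medium (adjusted p = 1.54e-08) and by 2.15 ± 0.21 in wtSOD1 medium (adjusted p = 2.89e-11). Those are 4.61-fold, 3.20-fold and 4.44-fold, measured between these libraries, and since nothing states that the experiments were separate differentiations the spread may be partly technical. Exons of Psmb8 share 498 annotated bases with Gm20496 on the other strand, and without strand in the counting reads of the pair cannot be told apart.

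Library 6 of the NTg day 1 group held the 2.83 CPM, which is 12 reads, with the next at 1.11 CPM, and without it the NTg rise of Psmb8 was 2.40 (edgeR, adjusted p = 5.4e-12). On the authors' variance-stabilized values the rises were smaller, 1.08, 0.98 and 1.15 in NTg, mSOD1 and wtSOD1 medium, and still passed. RNA came from whole cultures, so fewer cells of a type and less RNA per cell cannot be told apart. Over the same days the 7 motor neuron markers fell in all 3 media, where 28% to 30.8% of all genes fell. In each medium 5 of 5 tested mesenchyme markers and 5 of 7 astrocyte markers rose, where 28.4% to 31.1% of all genes rose. The astrocyte markers did not move as 1 set, since 1 of the 7 fell in each medium. Of the 10 microglia and leukocyte markers 3 passed the filter on low counts. Among these Csf1r fell in NTg and wtSOD1 medium, and its difference of -1.69 in mSOD1 medium did not pass. Cd68 had differences of 0.27, 0.18 and 0.22 in NTg, mSOD1 and wtSOD1 medium that did not pass, and C1qa was at 0 in every day 3 library. Itgam was positive in mSOD1 medium, at 0.40, and negative in the other media, and did not pass either. In NTg day 1 library 6, Csf1r was at 16.5 CPM, against at most 3.16 CPM elsewhere. Itgam was at 5.89 CPM in that library, against at most 1.37 CPM. The part of the other cell types in the rise was not tested.

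Psmb9, the induced counterpart of Psmb6, was rarer, with 1 to 17 reads per library on day 1. It was between 0.115 and 0.752 CPM on day 1 in NTg medium (median 0.511) and between 0.903 and 1.86 CPM on day 3 (median 1.26). In mSOD1 medium it went from between 0.0862 and 1.05 CPM (median 0.302) to between 0.965 and 2.43 CPM (median 1.70). In wtSOD1 medium it went from between 0.205 and 0.837 CPM (median 0.432) to between 1.56 and 2.08 CPM (median 1.83). The days did not overlap in NTg and wtSOD1 medium, which held for 38.4% and 38.3% of all genes. In mSOD1 medium 1 day 1 library lay above the lowest day 3 library. Psmb9 rose by 1.46 ± 0.37 in NTg medium (adjusted p = 0.000836), by 2.18 ± 0.39 in mSOD1 medium (adjusted p = 8.48e-06) and by 2.08 ± 0.35 in wtSOD1 medium (adjusted p = 2.57e-06), on the log2 scale. Its exons share 212 annotated bases with Tap1 on the other strand, and the use of strand in counting is not stated in any source used, so some of its reads may belong to Tap1.

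Psmb10, the induced counterpart of Psmb7, moved far less. Its medians went from 11.0 to 14.4 CPM in NTg medium, from 12.4 to 15.1 CPM in mSOD1 medium and from 11.9 to 14.7 CPM in wtSOD1 medium, and the days overlapped in all 3. It rose by 0.28 ± 0.11 in NTg medium (adjusted p = 0.0227) and by 0.29 ± 0.11 in wtSOD1 medium (adjusted p = 0.0179), and the difference of 0.21 ± 0.11 in mSOD1 medium did not pass (adjusted p = 0.0931). The wtSOD1 call was lost without experiment 4 or 6 (0.20 and 0.24, adjusted p = 0.117 and 0.0847) and without the 2 libraries that stand apart (0.21, adjusted p = 0.0781), and the NTg call without experiment 1, 4 or 5 (0.24 to 0.25, adjusted p up to 0.0800).

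Psme1 and Psme2, the PA28 pair, did not pass in any medium. Psme1 had group means of 37.3, 39.6 and 38.1 CPM on day 1 in NTg, mSOD1 and wtSOD1 medium, and 37.5, 37.4 and 36.4 CPM on day 3. Its day differences were 0.01, -0.08 and -0.06 on the log2 scale, and the 95% intervals ran at their widest from -0.20 to 0.13. Psme2 had group means of 4.56, 4.36 and 4.45 CPM on day 1 and of 4.27, 4.46 and 4.04 CPM on day 3. Its differences were -0.04, 0.03 and -0.13, with intervals running at their widest from -0.42 to 0.33. Among the 5 induced genes, Psmb8 and Psmb9 thus passed in all 3 media, Psmb10 in NTg and wtSOD1 medium, and the ring genes in none. That was 60%, 40% and 60% of the 5 in NTg, mSOD1 and wtSOD1 medium. Of all genes 61.5%, 56.5% and 61.8% were called, so the 5 as a set were not called more often.

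**Figure D2:**
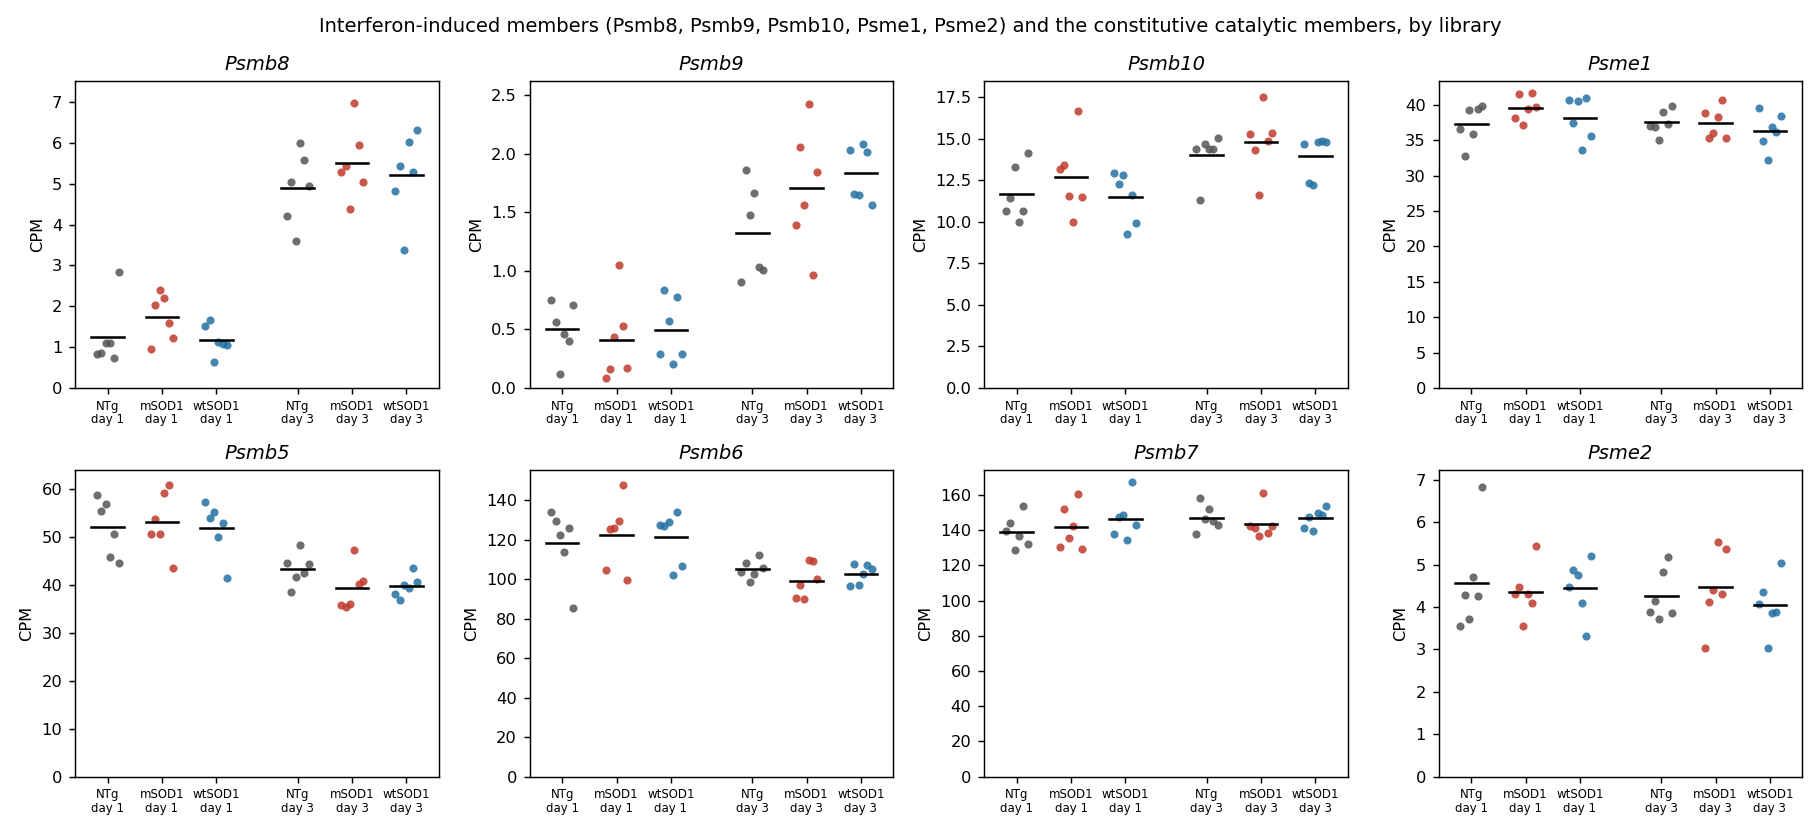
Level in CPM of the 5 interferon-induced genes and of Psmb5, Psmb6 and Psmb7 in each of the 36 libraries (points), with the group mean as a black line and the 6 groups along the axis. Psmb8 and Psmb9 sit higher on day 3 in all 3 media, Psmb5 and Psmb6 sit lower, and Psme1, Psme2 and Psmb7 keep similar means.

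The constitutive catalytic genes did not share that rise. Psmb5 was between 44.5 and 58.9 CPM on day 1 in NTg medium (median 53.1) and between 38.6 and 48.3 CPM on day 3 (median 43.5). Its day 3 medians in mSOD1 and wtSOD1 medium were 38.2 and 39.7 CPM against 52.2 and 53.5 CPM on day 1, and the days overlapped in each medium. Psmb5 fell by 0.28 ± 0.08 in NTg medium (adjusted p = 0.00261), by 0.43 ± 0.08 in mSOD1 medium (adjusted p = 2.11e-05) and by 0.39 ± 0.08 in wtSOD1 medium (adjusted p = 5.54e-05), on the log2 scale. In percent of the day 1 level it fell by 17.6% in NTg medium, fell by 25.7% in mSOD1 medium and fell by 23.6% in wtSOD1 medium.

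Psmb6 went from medians of 124, 126 and 127 CPM in NTg, mSOD1 and wtSOD1 medium to 105, 98.3 and 104 CPM, again with overlapping days. It fell by 0.30 ± 0.08 in mSOD1 medium (adjusted p = 0.00266), by 0.23 ± 0.08 in wtSOD1 medium (adjusted p = 0.0135) and by 0.19 ± 0.08 in NTg medium (adjusted p = 0.0487). The NTg call was lost in 9 of 15 alternatives, without experiment 1 at -0.14 (adjusted p = 0.171), and the wtSOD1 call without experiment 1 or 3 (adjusted p up to 0.0746). Psmb7 did not pass, with means of 139, 142 and 146 CPM on day 1, 147, 144 and 147 CPM on day 3 and differences of 0.08, 0.02 and 0.01.

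Counted within a library, the reads of a pair need no scaling between libraries, and the ratio of an induced gene to its counterpart was compared in this way. For every 100 reads of Psmb5 there were 1.39 to 6.35 reads of Psmb8 on day 1 in NTg medium (median 1.74) and 8.63 to 13.1 on day 3 (median 11.8). In mSOD1 medium the numbers were 1.87 to 4.73 (median 3.28) and 12.2 to 15.3 (median 14.8), and in wtSOD1 medium 1.14 to 3.10 (median 2.40) and 8.44 to 15.6 (median 13.7). The days did not overlap in any medium. The ratio rose 5.09-fold in NTg, 4.39-fold in mSOD1 and 5.77-fold in wtSOD1 medium, each at the smallest value an exact two-sided permutation test of 6 against 6 can give (p = 0.002165, adjusted p = 0.0117 over 27 comparisons). An exact sign-flip permutation test over the 6 same-numbered pairs cannot go below p = 0.03125. Since the days did not overlap, every pair rose and p was at that floor. After adjustment over 27 comparisons it did not pass (adjusted p = 0.105 in each medium). With 6 pairs this test could hardly pass after adjustment, so it does not decide on the rise.

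For every 100 reads of Psmb6 there were medians of 0.420, 0.257 and 0.357 reads of Psmb9 on day 1 and of 1.22, 1.79 and 1.79 on day 3 in NTg, mSOD1 and wtSOD1 medium. That ratio rose 6.05-fold in mSOD1 and 4.71-fold in wtSOD1 medium (exact permutation test, adjusted p = 0.0117 in both) and 3.06-fold in NTg medium (exact permutation test, adjusted p = 0.0292), where the call was lost without experiment 1, 2, 3, 4 or 5. The sign-flip permutation test of the pairs gave the same adjusted p of 0.105. For every 100 reads of Psmb7 there were medians of 7.78, 8.85 and 7.62 reads of Psmb10 on day 1 and of 10.0, 10.7 and 9.76 on day 3. The changes of 1.14-fold, 1.15-fold and 1.22-fold did not pass (exact permutation test, adjusted p = 0.368, 0.164 and 0.0584). Of the 3 pairs, Psmb8 to Psmb5 was the one that passed the unpaired test in every medium with all experiments and without any 1 of them.

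**Figure D3:**
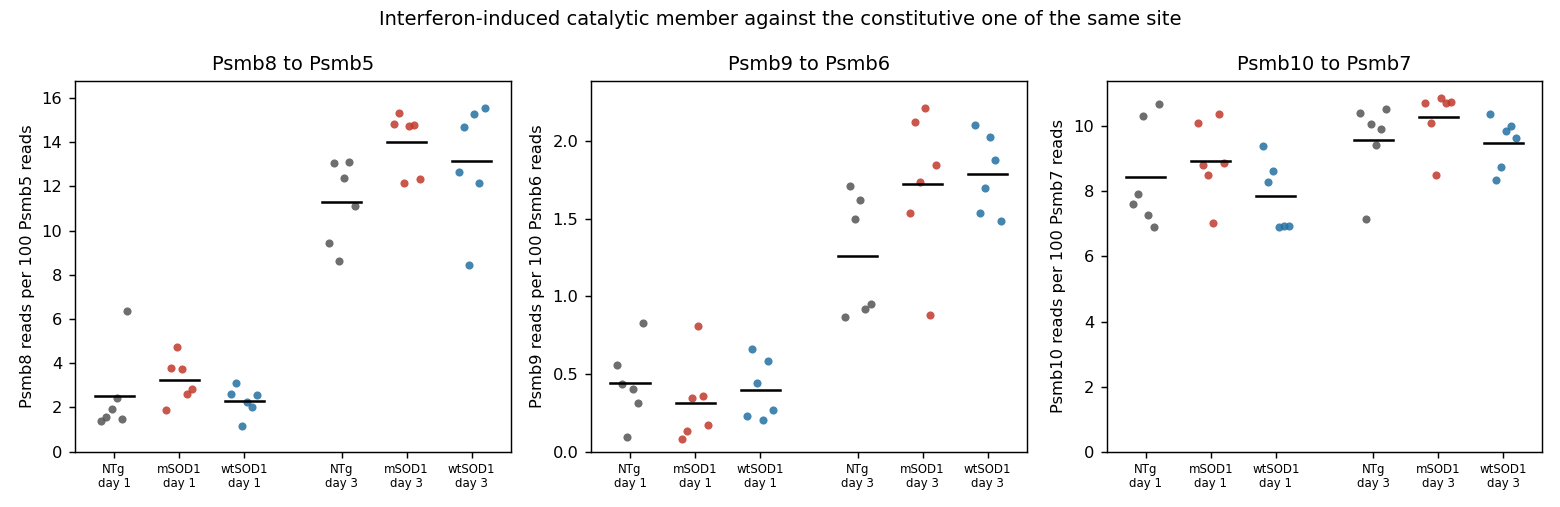
Reads of the induced catalytic gene per 100 reads of its constitutive counterpart in each library (points), with the group mean as a black line, for Psmb8 to Psmb5, Psmb9 to Psmb6 and Psmb10 to Psmb7. The first 2 ratios are several times higher on day 3 in each medium, with medians of 11.8 to 14.8 and 1.22 to 1.79, while the third overlaps between days.

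Over the whole family, day 3 against day 1 called 12 of 47 genes higher and 9 lower in NTg medium, which is 44.7% against a background of 61.5% of all genes tested, and without experiment 2 the count was 13 (background 56.4%). In mSOD1 medium 4 rose and 15 fell, against a background of 56.5%, and in wtSOD1 medium 7 rose and 6 fell, against 61.8%. The background for libraries that do not overlap between days was 38.4%, 32% and 38.3%. The family was thus called no more often than other genes, and its changes were small: among the 41 constitutive genes none moved by more than 0.50 on the log2 scale. By direction, the background was 30.8% higher and 30.8% lower in NTg medium, 28.4% and 28% in mSOD1 medium, and 31.1% and 30.7% in wtSOD1 medium. Their medians were 0.03, -0.08 and 0.01, beside medians of -0.00020, -0.0080 and -0.0057 over all genes.

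The split by direction depended on the scaling. With upper-quartile factors 13 rose and 4 fell in NTg medium (background 61.2%), 4 rose and 13 fell in mSOD1 medium (background 55.9%) and 9 rose and 3 fell in wtSOD1 medium (background 61.6%). Without the libraries that stand apart 5 rose and 10 fell in wtSOD1 medium (background 61.7%). The genes called in all 3 media were Psmb8, Psmb9, Psmc3ip and Psmd5 among those that rose, and Psmb5, Psmb6, Psmc5, Psme3 and Psmf1 among those that fell.

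By role, 4 of 7 alpha ring genes rose in NTg medium and none fell, where 30.8% of all genes rose and 30.8% fell. Psma5, an alpha ring subunit, went from a median of 17.1 CPM (14.7 to 18.1) to 19.4 CPM (18.3 to 22.1), with no overlap between days, and rose by 0.25 ± 0.08 (adjusted p = 0.00403). In mSOD1 and wtSOD1 medium its differences were 0.08 and 0.11 and did not pass. The other 3 that rose in NTg medium were Psma1, Psma2 and Psma4, by 0.14, 0.15 and 0.17, and were named after their values were seen. In wtSOD1 medium Psma1 and Psma2 rose by 0.17 and 0.15, and in mSOD1 medium no alpha gene rose and Psma7 fell by 0.30.

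Of the 4 beta ring genes without a cutting site, none passed in NTg medium, Psmb2 and Psmb4 fell in mSOD1 medium, and Psmb4 fell in wtSOD1 medium. Of all genes 30.8%, 28% and 30.7% fell in NTg, mSOD1 and wtSOD1 medium. Among the 6 ATPases of the cap, Psmc5 was the only gene called, and it fell in all 3 media by 0.15, 0.24 and 0.13. Of the 3 base genes that hold ubiquitin receptors, Psmd2 rose in NTg medium by 0.08 and Psmd4 fell in mSOD1 medium by 0.14. Of the 8 lid genes 1 rose and 2 fell in NTg medium, 3 fell in mSOD1 medium and none passed in wtSOD1 medium. The cap genes therefore held changes of at most 0.24 on the log2 scale.

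Among the remaining regulators, Psme3, which forms the nuclear activator ring, fell in each medium. It was between 192 and 223 CPM on day 1 in NTg medium (median 210) and between 183 and 194 CPM on day 3 (median 186). The falls were 0.14 ± 0.05, 0.23 ± 0.05 and 0.15 ± 0.04 on the log2 scale in NTg, mSOD1 and wtSOD1 medium (adjusted p = 0.00564, 3.86e-05 and 0.00393). Psme4, which encodes the activator PA200, did not pass, with means of 287, 279 and 291 CPM on day 1 and 294, 291 and 293 CPM on day 3. Psmf1, the proteasome inhibitor PI31, fell by 0.18, 0.13 and 0.12.

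The assembly chaperones moved in both directions. Psmd5, which helps to build the ATPase base, was between 50.8 and 65.3 CPM on day 1 in NTg medium (median 55.9) and between 69.3 and 75.5 CPM on day 3 (median 73.5), with no overlap. It rose by 0.38 ± 0.06 in NTg medium (adjusted p = 7.38e-07), by 0.19 ± 0.06 in mSOD1 medium (adjusted p = 0.00597) and by 0.37 ± 0.06 in wtSOD1 medium (adjusted p = 1.01e-06). Its mSOD1 days overlapped, with medians of 57.5 and 69.7 CPM. The test of a different day effect between mSOD1 and NTg medium did not pass for any of the 47 genes, as given below.

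Psmg3 and Psmg4, chaperones of the alpha ring, fell in mSOD1 medium by 0.50 ± 0.12 and 0.46 ± 0.09 (adjusted p = 0.000596 and 1.42e-05). There Psmg3 was between 13.5 and 19.5 CPM on day 1 and between 9.80 and 13.0 CPM on day 3, and Psmg4 between 12.4 and 17.4 CPM and between 9.70 and 11.4 CPM, with no overlap in either. In NTg medium they fell by 0.30 ± 0.12 and 0.21 ± 0.08 (adjusted p = 0.0314 and 0.0251), and both calls were lost in 5 of 15 alternatives. In wtSOD1 medium the differences of -0.10 and -0.16 did not pass. Exons of Psmg3 share 280 annotated bases with another gene model.

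Psmc3ip is counted here by its name alone. It went from a median of 7.92 CPM (7.45 to 8.93) to 13.5 CPM (11.8 to 15.6) in NTg medium, from 6.94 to 10.1 CPM in mSOD1 medium and from 8.50 to 13.0 CPM in wtSOD1 medium. It rose by 0.70 ± 0.12, 0.50 ± 0.12 and 0.49 ± 0.12 on the log2 scale (adjusted p = 2.63e-06, 0.000777 and 0.000340). The days were apart in NTg medium and overlapped in the other media.

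**Figure D4:**
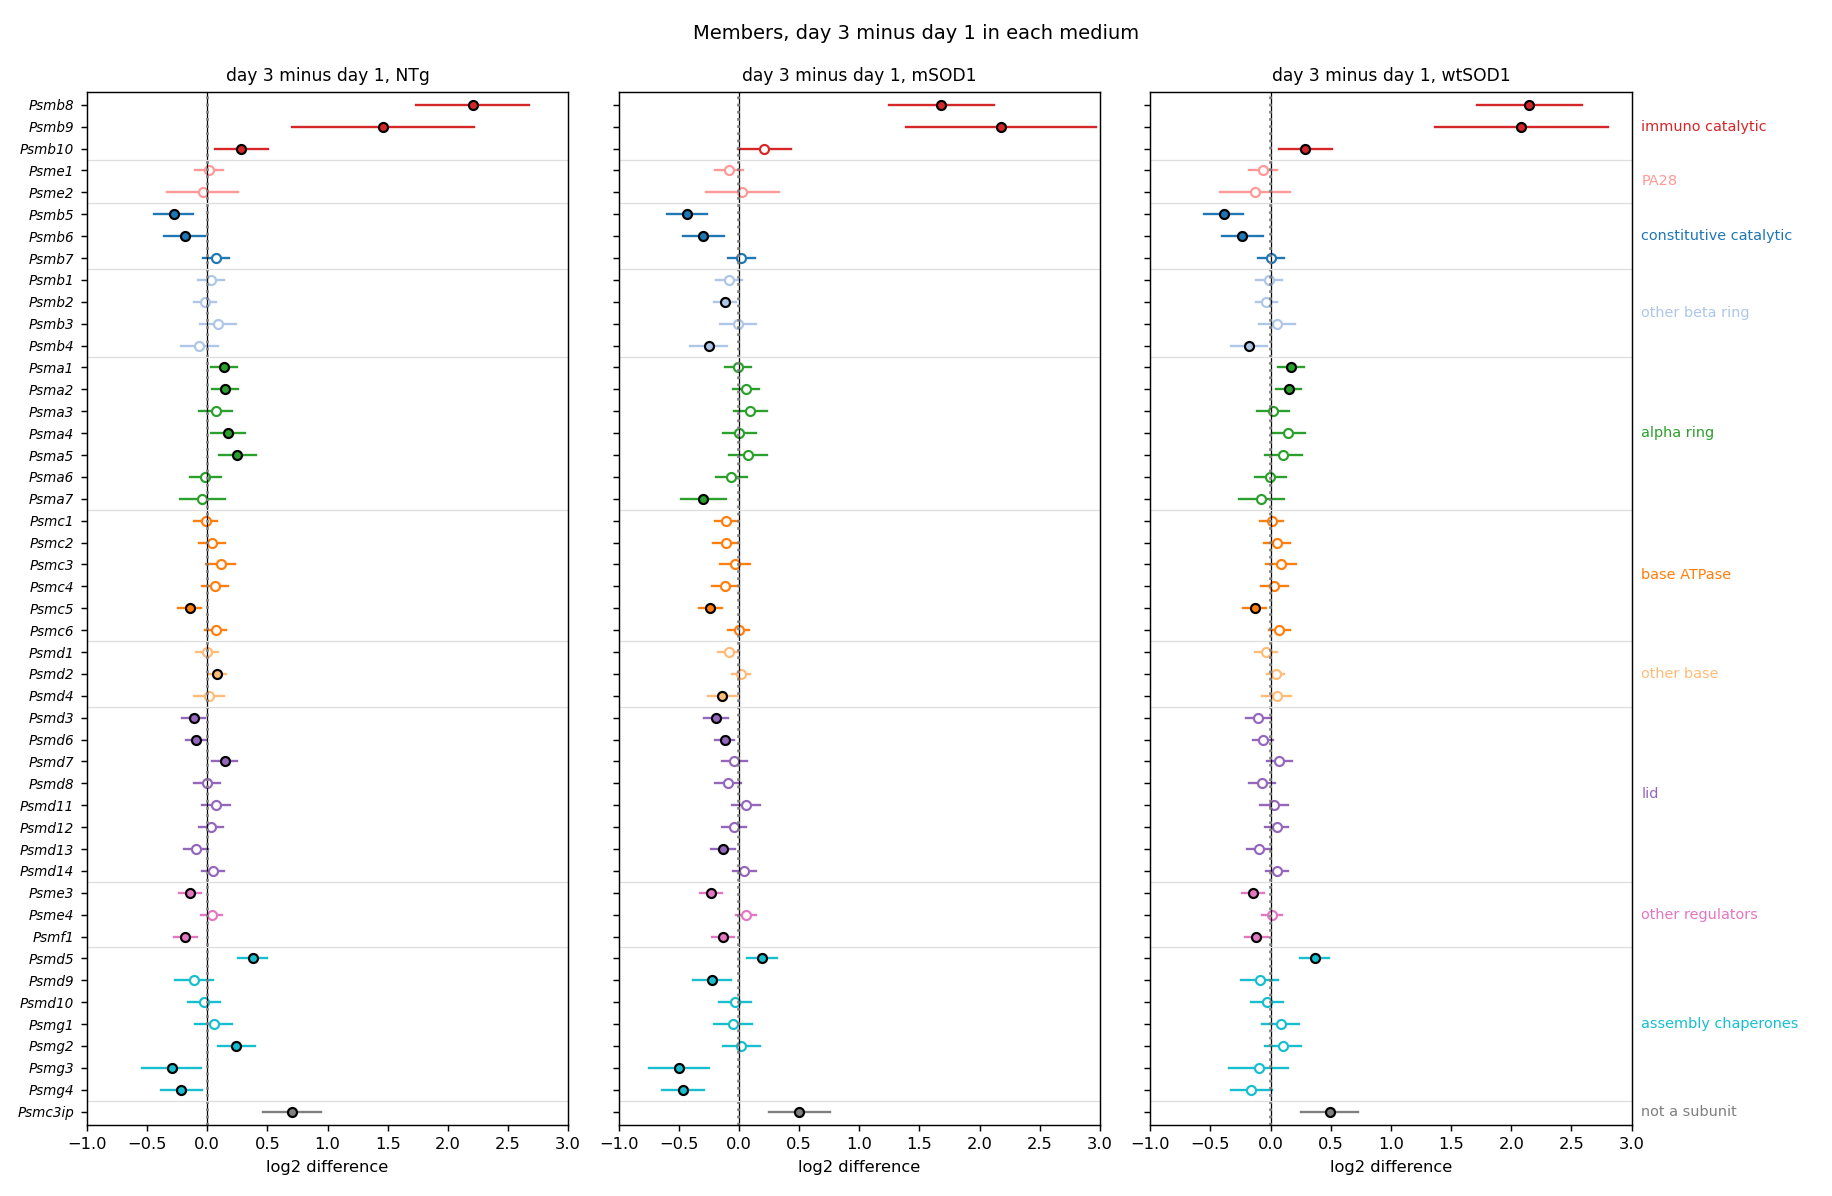
Difference between day 3 and day 1 on the log2 scale for each tested gene in NTg, mSOD1 and wtSOD1 medium, with 95% intervals as lines, filled symbols for genes that passed at an adjusted p of 0.05, colours for roles and a dotted line at the median of all genes. Psmb8 and Psmb9 lie between 1.46 and 2.21, and all 41 constitutive genes lie at most 0.50 from 0.

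The neighbouring machinery of the proteasome was followed in a list of 20 genes that includes its assembly factor, shuttle receptors, ubiquitin genes and the factors that raise its transcription. In NTg medium 7 rose and 6 fell, in mSOD1 medium 5 and 5, and in wtSOD1 medium 7 and 6, where 61.5%, 56.5% and 61.8% of all genes were called in either direction. Nfe2l2, the factor that acts through the antioxidant element, rose by 1.10 ± 0.09, 0.97 ± 0.09 and 1.14 ± 0.09 on the log2 scale in NTg, mSOD1 and wtSOD1 medium (adjusted p = 1.62e-13, 8.83e-12 and 3.07e-14). Nfe2l1, the factor that restores proteasome genes when the protease is blocked, rose by 0.35, 0.34 and 0.37, and Ngly1, an enzyme that activates it, by 0.38, 0.42 and 0.29. Zfand5, which stimulates the proteasome in wasting muscle, fell by 0.49, 0.44 and 0.50, Adrm1, a ubiquitin receptor of the cap, by 0.26, 0.30 and 0.27, and Ubqln2, a shuttle factor, by 0.26, 0.21 and 0.30. No gene of that list was called between media, where 0.0263% to 3.37% of all genes were, so few calls among 20 genes could arise.

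A list of 9 genes of peptide presentation and interferon signalling moved with Psmb8 in part. With time 7 of the 9 rose in each medium, where 30.8%, 28.4% and 31.1% of all genes rose in NTg, mSOD1 and wtSOD1 medium. Tap1 went from medians of 11.0, 16.0 and 13.2 CPM in NTg, mSOD1 and wtSOD1 medium to 22.4, 23.6 and 23.9 CPM and rose by 0.95, 0.56 and 0.93 on the log2 scale. Tap2, the other part of the pump, rose by 2.28, 1.67 and 2.30, and B2m, the light chain of MHC class I, by 1.27, 1.07 and 1.28. Irf9, a transcription factor of interferon signalling, fell by 0.74 ± 0.07 in mSOD1 medium (adjusted p = 1.90e-11) and by 0.44 ± 0.07 in wtSOD1 medium (adjusted p = 1.63e-06), and in NTg medium the difference of -0.09 did not pass. Irf1, another such factor, rose, from medians of 13.4, 22.6 and 11.9 CPM to 31.1, 28.1 and 29.9 CPM in NTg, mSOD1 and wtSOD1 medium. Stat2, of the same signalling, had means of 29.8, 42.5 and 28.7 CPM on day 1 and 29.0, 33.7 and 27.5 CPM on day 3. It fell in mSOD1 medium, where it and Irf9 were the 2 of the 9 called lower and 28% of all genes fell. In mSOD1 and wtSOD1 medium, presentation genes, Psmb8 and Irf1 were thus higher on the day on which Irf9, and in mSOD1 medium also Stat2, was lower.

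Between media the 47 genes differed little. The comparisons share libraries, NTg serving both transgenic media and each medium serving others, so they are not independent of each other. In mSOD1 against NTg medium on day 1, 0 of 47 passed, where 0.421% of all genes did, and 1 had an unadjusted p below 0.05. That gene was Psmb8. It was between 0.739 and 2.83 CPM in NTg medium (median 0.977) and between 0.949 and 2.39 CPM in mSOD1 medium (median 1.81). The groups overlapped. The difference was 0.71 ± 0.26 on the log2 scale (95% interval 0.18 to 1.24), higher in 5 of 6 pairs, and did not pass (edgeR quasi-likelihood test, adjusted p = 0.530). Without NTg library 6 it was 0.90 (adjusted p = 0.115), and over 16 alternatives the adjusted p ran from 0.0622 to 0.967.

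In the same comparison 4 of the 9 presentation and interferon genes rose, where 0.408% of all genes did, and all 9 differences were positive, with a median of 0.46 against -0.0028 over all genes. Irf9 rose by 1.00 (adjusted p = 2.66e-12), Irf1 by 0.85 (adjusted p = 5.74e-05) and Tap1 by 0.46 (adjusted p = 0.000668). Irf9 was between 17.7 and 24.0 CPM in NTg medium (median 20.3) and between 36.5 and 47.5 CPM in mSOD1 medium (median 39.8), with no overlap. Psmb9, next to Tap1, had a difference of -0.33 with an interval from -1.28 to 0.61, and Psme1, Psme2 and Psmb10 had differences of 0.09, 0.01 and 0.15. At these read counts a change in Psmb9 as large as that of Tap1 was not detectable.

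The read ratios gave no call between media either. Psmb8 per Psmb5 was 1.45-fold higher in mSOD1 than in NTg medium on day 1 (exact permutation test, adjusted p = 0.335) and 1.25-fold higher on day 3 (exact permutation test, adjusted p = 0.0731). Without the libraries that stand apart the day 1 difference was 0.86 on the log2 scale (exact permutation test, adjusted p = 0.0501). On day 3 the mSOD1 medians were 14.8 reads per 100 against 11.8 in NTg medium, and the groups overlapped.

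On day 3 in mSOD1 against NTg medium 1 of 47 genes passed, Psmc3ip, where 2.94% of all genes did and 0.704% fell. It was between 11.8 and 15.6 CPM in NTg medium and between 8.58 and 11.7 CPM in mSOD1 medium. All 6 mSOD1 libraries lay below all 6 NTg libraries, which held for 2.2% of all genes in either direction. Psmc3ip was lower by -0.40 ± 0.12 on the log2 scale (adjusted p = 0.0464), in 6 of 6 pairs. The call was lost with no filter on low counts and without any 1 of the 6 experiments, with adjusted p up to 0.215. Its exons share 385 annotated bases with Mlx on the other strand.

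None of the 41 constitutive genes passed there, but their differences were nearly all of 1 sign: 40 of 41 were negative, with a median of -0.07, while 51.8% of all genes were negative, with a median of -0.0063. Psmf1, the inhibitor, was the exception at 0.08 ± 0.05 (adjusted p = 0.319), and 7 of the 41 had an unadjusted p below 0.05. The count was also 40 with RLE and upper-quartile factors, in DESeq2, on the authors' variance-stabilized values and with both replicate blocks, and it was 38 to 40 with each experiment left out. The 4 induced genes Psmb8, Psmb9, Psmb10 and Psme2 were on the other side at 0.18, 0.38, 0.08 and 0.08, and none passed. Summed over the 41, the level was 4371 ± 98.8 CPM in NTg medium and 4161 ± 172 CPM in mSOD1 medium (SD, n = 6), and the ranges of 4238 to 4461 and 3912 to 4370 CPM overlapped.

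The libraries did not share those lower values equally. In the mSOD1 libraries of experiments 1 to 6, 36, 27, 39, 21, 26 and 35 of the 41 genes were below the NTg mean. In the NTg libraries themselves the numbers were 30, 10, 32, 20, 14 and 14, and in the wtSOD1 libraries 31, 17, 31, 25, 22 and 17. Experiments 1 and 3 were therefore low in all 3 media, and the 41 genes are not separate observations. On the same day the summed motor neuron markers had medians of 978 CPM in mSOD1 and 813 CPM in NTg medium. Their ranges of 766 to 1081 and 629 to 1041 CPM overlapped, and 0 of the 7 genes passed, where 2.94% of all genes did. The mesenchyme markers had medians of 171 and 242 CPM, with 2 of 5 tested mesenchyme genes lower, where 0.704% of all genes fell. The part of either set of cells in the lower values was not tested.

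With the experiment number as a block, 3 genes fell in mSOD1 against NTg medium on day 3, where 9.93% of all genes were called: Psmc3ip, Psmc4 and Psma1. Psmc4, an ATPase of the base, was between 104 and 117 CPM in NTg medium (median 108) and between 86.1 and 105 CPM in mSOD1 medium (median 100). It was lower in all 6 pairs, by -0.17 ± 0.05 without the block (adjusted p = 0.0628) and by -0.18 ± 0.05 with it (adjusted p = 0.0193). Psma1, an alpha subunit, was between 103 and 121 CPM in NTg medium (median 119) and between 98.8 and 110 CPM in mSOD1 medium (median 104). It was lower in all 6 pairs as well, by -0.15 ± 0.05 without the block (adjusted p = 0.10) and with it (adjusted p = 0.0388). Both groups overlapped in either gene. With a block for each experiment within each day, Psmc1, Psmc6 and Psmg1 were called too, at a background of 18.1%. Psmc4 was also called with upper-quartile factors, in DESeq2 and without the 2 libraries that stand apart.

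**Figure D5:**
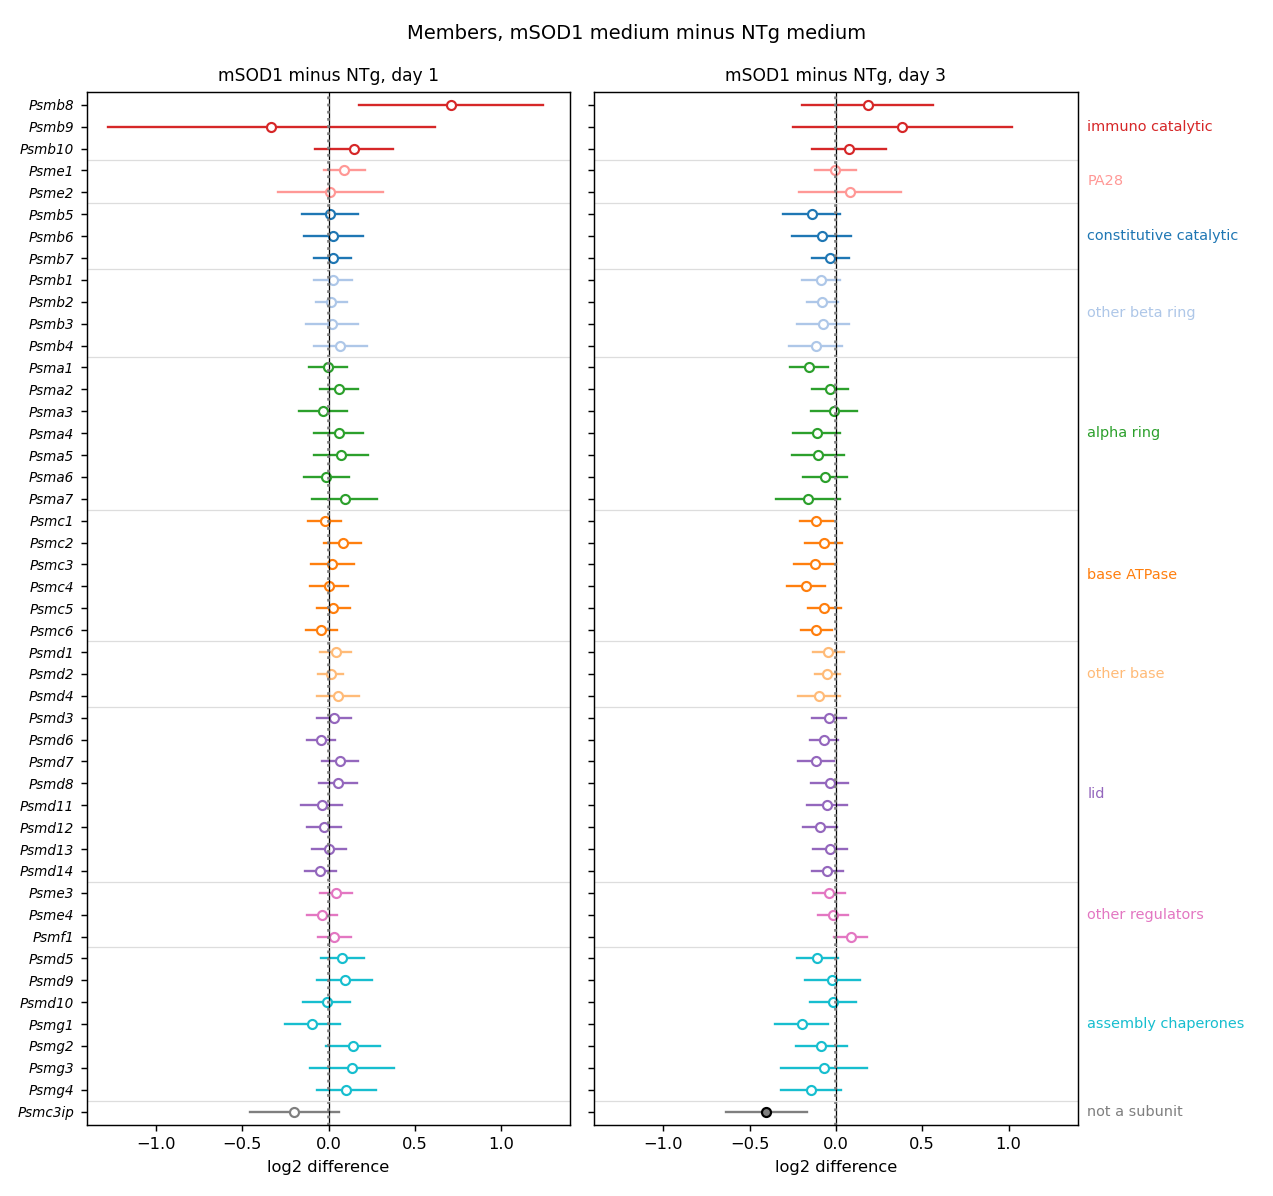
Difference between mSOD1 and NTg medium on the log2 scale for each tested gene on day 1 and day 3, with 95% intervals as lines, filled symbols for genes that passed at an adjusted p of 0.05, colours for roles and a dotted line at the median of all genes. On day 1 no symbol is filled, and Psmb8, at 0.71, lies furthest from 0. On day 3 40 of the 41 constitutive genes lie left of 0 and Psmc3ip, at -0.40, is filled.

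In wtSOD1 against NTg medium 0 of 47 genes passed on either day, against 0.0263% of all genes on day 1 and 0.0987% on day 3, and none had an unadjusted p below 0.05. In mSOD1 against wtSOD1 medium 0 of 47 passed on day 1, against 1.01%, and 3 had an unadjusted p below 0.05. On day 3 there were again 0 of 47, against 3.37%, with 8 at an unadjusted p below 0.05. DESeq2 and limma on the variance-stabilized values also called 0 in these 4 comparisons and in mSOD1 against NTg medium on day 1. On day 3 36 of the 41 constitutive genes were lower in mSOD1 than in wtSOD1 medium, with a median of -0.05. Of all genes 51.1% were lower, with a median of -0.0035, and the 41 are, as above, not separate observations. With the experiment block Psmc1, an ATPase, was called there at -0.13 ± 0.04 (adjusted p = 0.0304, background 9.33%), and within each day 5 genes were, Psma1, Psmc1, Psmc2, Psmc4 and Psmd4, at a background of 15.6%. On day 1 that within-day block called Psmg3, higher by 0.35 (adjusted p = 0.0422, background 3.8%).

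Whether the day effect differed between media was tested as an interaction. Of the 47 genes 0 passed for mSOD1 against NTg medium, where 0.23% of all genes did, 0 for mSOD1 against wtSOD1 medium, where 0.592% did, and 0 for wtSOD1 against NTg medium, where 0.0197% did. Unadjusted p was below 0.05 for 5, 6 and 0 of the 47. With the within-day block Psmc2 and Psmd4 passed, lower, for mSOD1 against wtSOD1 medium (background 10.9%), and without the libraries that stand apart but with the experiment block Psma4 and Psmd7 passed, lower, for mSOD1 against NTg medium (background 4.54%). For Psmb8 the day effect in mSOD1 medium was smaller than in NTg medium by an estimated -0.53 ± 0.32 (95% interval -1.18 to 0.13, adjusted p = 0.456). That estimate includes the NTg day 1 library of experiment 6, without which the NTg rise of Psmb8 was larger, as given above. For the constitutive genes 38 of 41 interactions of mSOD1 with NTg were negative, with a median of -0.09, where 50.3% of all genes were negative. Of mSOD1 with wtSOD1, 37 of 41 were negative, with a median of -0.08, where 50.6% of all genes were. Both interactions share the mSOD1 libraries and hold the day 3 values given above, and the 41 genes are not separate observations. They hold the day 1 differences too, negative for 12 of the 41 against NTg and 10 against wtSOD1 medium. Of all genes 51.4% and 49.7% were negative there. In the presentation and interferon list Irf1 and Irf9 passed for mSOD1 against NTg medium, at -0.96 ± 0.17 and -0.65 ± 0.10 (adjusted p = 0.00447 and 0.000629), so for those 2 genes the mSOD1 minus NTg difference was lower on day 3 than on day 1.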

How the data were processed

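RNA sequencing libraries of sorted motor neurons, 36 in all, came with a table per library of read counts per gene and of a variance-stabilized value on a log2 scale. Reads were aligned with TopHat 1.3.3 to mm9 and handled with DESeq, per the submitters' processing notes; the counts, as deposited, were whole numbers with no normalization, and the log2 values were stabilized by the authors. The counter, its annotation and its use of strand are stated in none of the sources. Of the gene rows, 7 had no symbol.

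Counts were fitted with edgeR 4.0.16 (R 4.3.3): TMM factors, filterByExpr, robust quasi-likelihood F-tests in 1 fit of 6 group means over 36 libraries with 30 residual degrees of freedom, and Benjamini-Hochberg adjustment over 15204 genes, called at an adjusted p of 0.05. A comparison written A minus B gives a log2 difference with its SE. CPM is reads per 1000000 reads of the library total times its TMM factor. Read ratios had 0.5 read added before the log2, were compared with exact two-sided permutation tests (scipy 1.17.1) and were adjusted over 27 comparisons. Levels per kilobase used principal transcripts of GENCODE on GRCm38, a later build than mm9, and upstream sequences came from RefSeq. The fitting script was tested on simulated data.

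Per the labels, libraries carry a number of the experiment, 1 to 6, and those of the same number were taken as pairs on that ground. On day 3 the mean correlation was 0.24, with 16 of 18 pairs above 0.1, and on day 1 it was 0.133, with 11 of 18 pairs above. Libraries with unlike numbers had means of -0.048 and -0.026, and same-numbered libraries of different days had 0.0373, with 9 of 54 above 0.1, so the data show little pairing across days. Fits with the number as a block, within each day and over both days, were alternatives, as were RLE and upper-quartile factors, no filter, DESeq2 1.42.0, limma 3.58.1 on the deposited log2 values, each experiment left out and 2 libraries left out. Whether experiments were separate differentiations is not given, so p-values measure the spread between these libraries.

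The genes and all lists were chosen with earlier results of these data known. Named genes were the induced genes, their counterparts, Psme3, Psme4, genes called between media and up to 5 per direction with the largest mean day difference; Psma1, Psma2, Psma4, Psma7, Psmb2, Psmb4, Psmc1, Psmc2, Psmc4, Psmc5, Psmc6, Psmd2, Psmd4, Psmd7, Psmf1 and Psmg1 were named after their values were seen. In the list of neighbouring genes 20 of 21 were matched. The 4 endothelial markers had group medians of 10.2 to 12.6 CPM summed, and no result rests on them. Libraries from before exposure were not analysed here. Of the presentation and interferon list, 1 gene is not reported here and enters no count.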

Additional observations from a re-analysis of the deposited data

Results flagged for a closer look

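In groups of 6 libraries, 108 sets of values were checked for a library far from the others, and 10 had a gap to its nearest neighbour above Dixon's critical share of the group's range; chance gives about 1 in 20. In the NTg day 1 library of experiment 6, Psmb8 was at 2.83 CPM with the next library at 1.11 CPM, Psme2 was at 6.84 CPM with the next at 4.70 CPM, and Psmb8 had 6.35 reads per 100 reads of Psmb5 with the next at 2.41. This is the library with a sum of microglia and leukocyte markers of 57.3 CPM and the fewest reads.

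On day 3, Psmb10 was low in the NTg library of experiment 2, at 11.3 CPM with the others at 14.4 to 15.0 CPM, and so was its ratio to Psmb7, at 7.15 reads per 100 against 9.44 to 10.5. The same ratio was low in the mSOD1 library of experiment 3, at 8.50 against 10.1 to 10.9. Psmb7 was high in the mSOD1 library of experiment 4, at 161 CPM against 137 to 143 CPM. Psme3 was high in the wtSOD1 library of experiment 1, at 204 CPM against 186 to 190 CPM. In the wtSOD1 library of experiment 2, Psma5 was at 21.9 CPM against 16.8 to 18.6 CPM and Psmg4 at 12.8 CPM against 10.9 to 11.6 CPM.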

How the results depend on the processing

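The number of genes called in mSOD1 against NTg medium on day 3 was 1. It was 2 with upper-quartile factors, with DESeq2 and without the 2 libraries that stand apart (Psmc3ip and Psmc4), 0 with no filter and 0 to 0 with each experiment left out. It was 3 with the replicate block, 6 with the block within each day and 5 with the replicate block and without those libraries. For mSOD1 against wtSOD1 medium the count of 0 became 1 on day 1 with the within-day block, and on day 3 it became 1 with the replicate block, 5 with the within-day block and 4 with the replicate block and without those libraries. The interaction counts of 0 became 2 for mSOD1 and NTg (replicate block without those libraries) and 2 for mSOD1 and wtSOD1 (within-day block). The NTg day count of 21 was 13 to 19 with each experiment left out. The other counts of calls stayed within 1.5 times.

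In the sign-flip test of the replicate pairing, the day differences in log2 ratio of Psmb8 to Psmb5 (2.35, 2.13 and 2.53) and of Psmb9 to Psmb6 (1.61, 2.60 and 2.23) no longer passed; with 6 pairs the smallest p is 0.03125. With each experiment left out, Psmb9 to Psmb6 in NTg medium was 1.19 to 1.93. Ratios that never passed changed sign: with each experiment left out, Psmb8 to Psmb5 in wtSOD1 minus NTg on day 1 (-0.16 to 0.29), Psmb9 to Psmb6 in wtSOD1 minus NTg on day 1 (-0.50 to 0.22) and in mSOD1 minus wtSOD1 on day 3 (-0.21 to 0.10), and Psmb10 to Psmb7 in mSOD1 minus NTg on day 1 (-0.0088 to 0.16) and in wtSOD1 minus NTg on day 1 (-0.18 to 0.0052) and day 3 (-0.051 to 0.033). Without the 2 libraries, the wtSOD1 minus NTg values on day 1 were 0.35 for Psmb9 to Psmb6 and 0.0086 for Psmb10 to Psmb7. The cause was not tested.

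Genes named by the rule were followed under the alternatives in the comparisons where their unadjusted p was below 0.05. Of those values, 576 kept their side of the threshold, 35 lost the call and 1 gained it (Psmg3). Comparisons at a higher p, and genes named after their values were seen, such as Psmc4 and Psma1, are not in these counts. The block changed no other call of a named gene than those given with the results. Upper-quartile factors, leaving out the NTg library alone and leaving out both libraries with the block were chosen after the data were seen. Day 1 depth limits Psmb8 and Psmb9 most, with as few as 11 and 1 reads in a library.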
